A study of Mus musculus with 8 samples.

Results

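Apical progenitor nuclei at the cell cycle angle of G1 and G0 were examined in the dorsal telencephalon, the embryonic tissue that gives rise to the cerebral cortex, of C57BL/6J mouse embryos at E15.5. A nucleus was included if its deposited cluster number was 4 and its deposited cell cycle angle, an angle around a circle of 2π radians named tricyclePosition, was under π/2 or was 7π/4 or more. The rule gave 1580 nuclei, out of 10948 nuclei in cluster 4 and 67319 nuclei in all. Wildtype embryos contributed 775 of them, in 4 samples of 353, 139, 108 and 175 nuclei, and Pantr2-/- embryos, called knockout here, contributed 805, in 4 samples of 275, 242, 137 and 151 nuclei. Pantr2 is a long noncoding RNA gene expressed in the developing brain. How its allele was made, and how many embryos a sample holds, is not given in the sources used here, so p-values measure only the spread between these samples. UMIs (unique molecular identifiers, each marking 1 captured transcript) were summed per gene and sample over the included nuclei before any test.

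Apical progenitors, or radial glia, line the ventricle of the embryonic cortex and divide there. Their nuclei travel with the cell cycle, lying away from the ventricle in S phase and at its surface in mitosis. In G1 a progenitor either commits to another round of division or leaves the cycle. Pax6 encodes a transcription factor of cortical radial glia, Hes5 a target of Notch signalling that holds back neurogenesis, Slc1a3 the glial glutamate transporter GLAST, and Hopx a cofactor found in radial glia. Late in corticogenesis the same lineage gains genes of glial competence before it gives rise to astrocytes.

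The deposited counts held 20446698 to 34083796 UMIs per sample over all nuclei. The included nuclei held between 303342 and 813950 UMIs per sample. The median nucleus held 2106 to 2741 UMIs, compared with 2813 to 3204 in the other nuclei of cluster 4. All 8 samples carried the same library date in the file headers, so that date separates no groups. Any 2 samples shared between 8 and 30 cell barcodes, at most 0.371% of the smaller one. The counts of Pantr2 were not analysed here, so sample labels were not checked against it. Wildtype replicate 1 had the most included nuclei, and fewer genes were called without it than without any other single sample, both between the genotypes and between angles in wildtype.

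The 4 markers were higher in these nuclei than in neurons, as the label of apical progenitors requires. Levels here are plain CPM, UMIs of the gene per 1000000 UMIs of the summed nuclei with no scaling factor. In wildtype replicates 1 to 4, Slc1a3 reached 1043, 725, 831 and 873 plain CPM at the G1/G0 angle, against 39.6 to 61.8 in cluster 1, a cluster of neurons in which Neurod6 was high. Pax6 reached 43.0, 44.2, 33.0 and 50.8, against 3.96 to 8.38 in cluster 1. Hes5 reached 84.8, 91.3, 42.9 and 83.1, against 11.2 to 24.0. Hopx, the marker with the fewest UMIs (86 in wildtype and 37 in knockout), reached 55.3, 33.2, 23.1 and 50.8, against 9.78 to 16.1. Each wildtype sample thus stood above every wildtype sample of cluster 1 for all 4 markers. Hopx in the knockout (15.6, 22.8, 11.6 and 19.3) lay between 11.6 and 22.8 and overlapped its range in cluster 1 (7.73 to 13.8).

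The share of nuclei with a UMI gave the same order. After each nucleus was thinned to 1400 UMIs, with no nucleus left out, 49.1% to 70.3% of the wildtype nuclei at the G1/G0 angle held a UMI of Slc1a3, and 4.04% to 6.06% did so in cluster 1, where the median nucleus held 2245 to 2425 UMIs. Without thinning these shares were 75.9% to 81.6% and 7.64% to 10.98%. For Pax6 the thinned shares were 3.70% to 7.91% and 0.744% to 1.14%, and the unthinned ones 7.41% to 12% and 1.03% to 2.06%. Neurod6, a transcription factor gene of cortical excitatory neurons, had a UMI in 22.3% to 31.7% of the thinned wildtype nuclei at the G1/G0 angle and in 40.5% to 44.5% of those in cluster 1. The included nuclei therefore held a neuronal transcript beside those of radial glia, and free RNA in the droplets and transcription in the nucleus cannot be told apart from these counts.

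**Figure D1:**
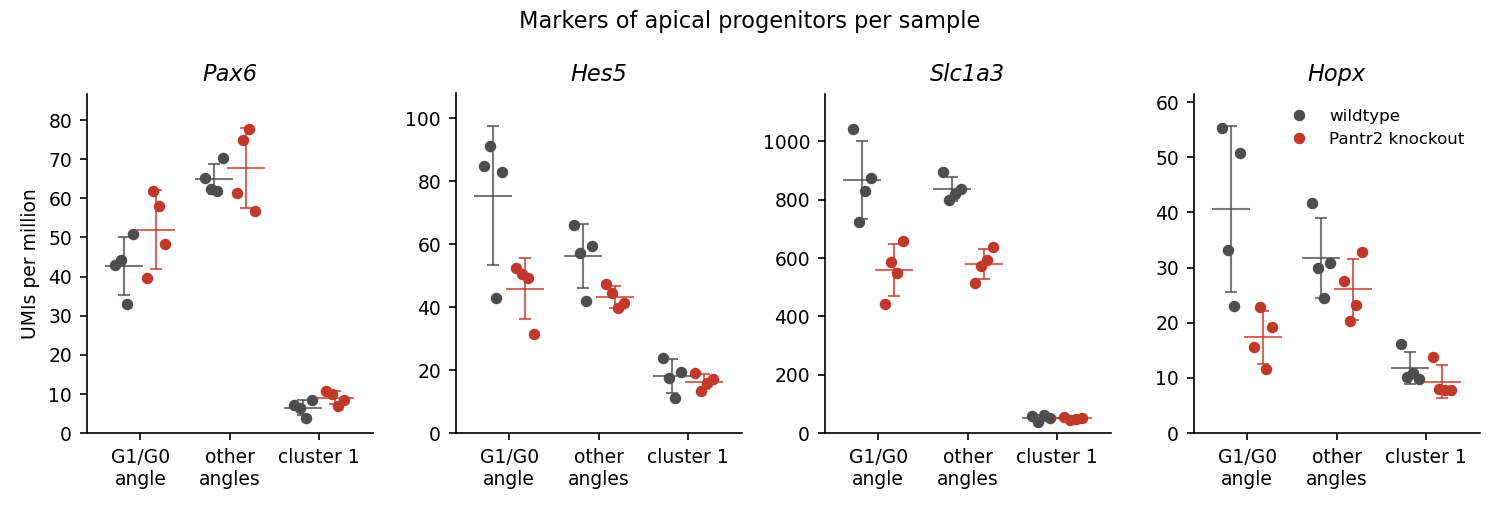
Levels of Pax6, Hes5, Slc1a3 and Hopx (plain CPM, each axis from 0) in cluster 4 nuclei at the G1/G0 angle, cluster 4 nuclei at other angles, and cluster 1. Points are the 4 wildtype (grey) and 4 knockout (red) samples, with mean ± SD. All 4 markers are higher in cluster 4 than in cluster 1 in wildtype, and Slc1a3 of the knockout samples lies below that of the wildtype samples at both angle ranges.

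The angle ordered the cell cycle genes. These values describe the selection, since the angle is computed from the nuclei's own transcripts. Of the included nuclei, 84.2% to 93.4% per sample were called G1 from S and G2/M gene scores, compared with 16.03% to 28.9% of the other cluster 4 nuclei. Over the wildtype samples, Mcm6, a subunit of the replicative helicase, was at 9.30 ± 7.70 plain CPM (SD, n = 4) in the bin from 7π/4 to 2π. It stood at 60.2 ± 23.3 from 0 to π/4, 94.0 ± 13.5 from π/4 to π/2 and 155 ± 14.0 just beyond the window. The first bin thus held little of this S phase gene and the last already much of it. Top2a, which untangles DNA before mitosis, stayed at 23.3 ± 14.6, 15.6 ± 12.7 and 15.0 ± 6.25 within the window and reached 758 ± 65.8 between π and 5π/4. Cyclin D2 (Ccnd2) varied little along the circle, between 142 ± 21.7 and 192 ± 29.8, and Ccnd1 was low throughout, with 6, 3 and 5 UMIs in the 3 bins of the window.

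Within the window the bin means of Gadd45g and Hes5 differed by less than the spread between samples. Gadd45g, a stress and growth arrest gene that marks newborn intermediate progenitors, was at 112 ± 31.9, 131 ± 48.0 and 88.7 ± 54.1 plain CPM in the 3 bins and at 45.7 ± 15.0 between π and 5π/4. Hes5 was at 82.4 ± 41.8, 78.4 ± 22.1 and 68.2 ± 19.0. The samples spread widely in these bins, which held 313, 214 and 248 wildtype nuclei, and the bin from 5π/4 to 7π/4 held only 106.

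**Figure D2:**
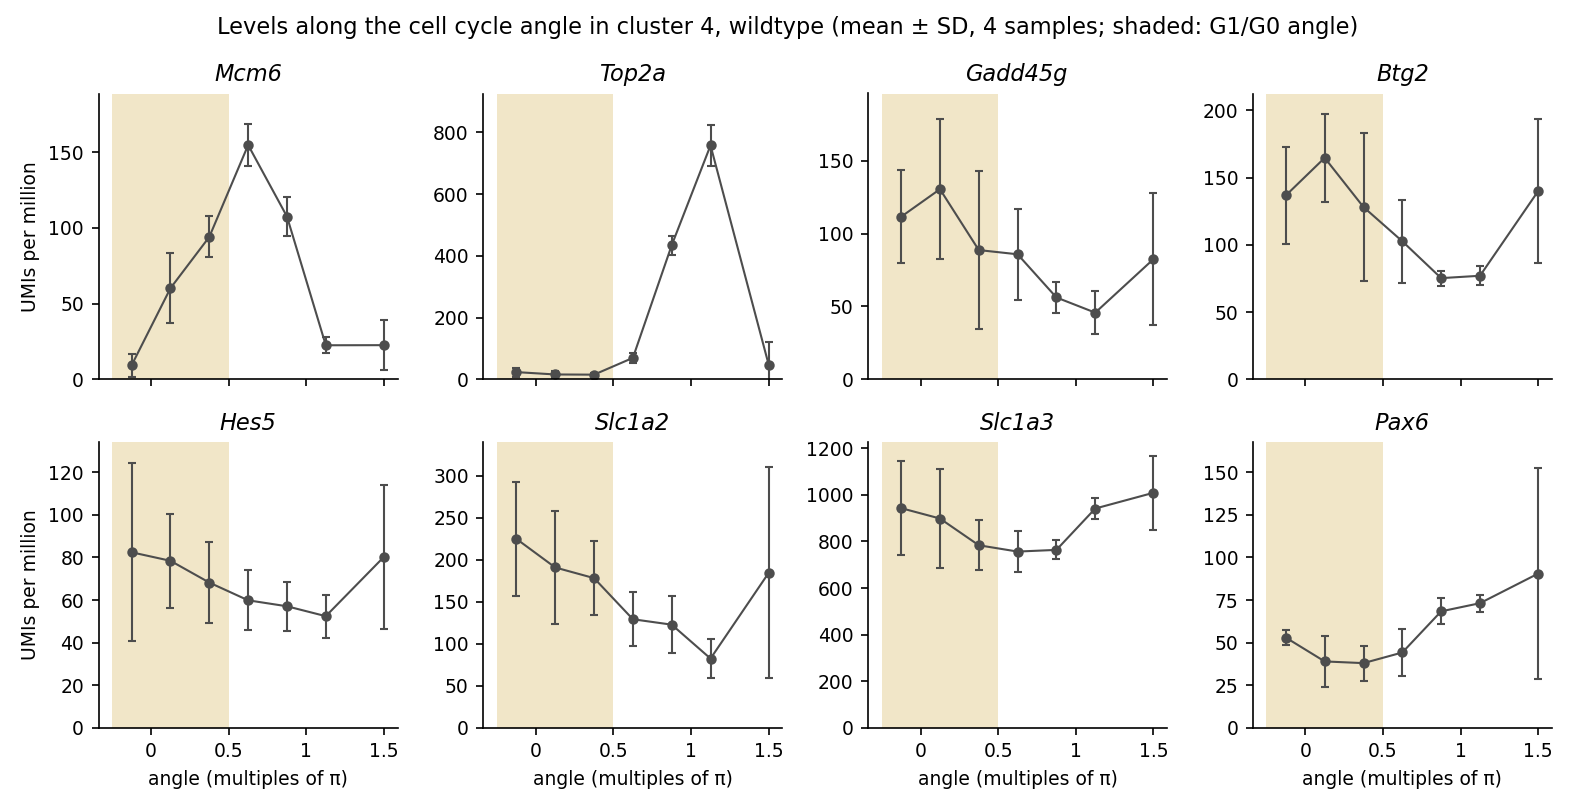
Levels (plain CPM, mean ± SD over the 4 wildtype samples) of 8 genes along the cell cycle angle of cluster 4 nuclei, in multiples of π, with the bin from 7π/4 to 2π drawn left of 0 and error bars cut at 0. Mcm6 rises and Top2a stays low within the shaded G1/G0 range, and Slc1a2 has its lowest mean between π and 5π/4.

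Transcripts that define other cells were present at uneven levels. The summed level of 13 excitatory neuron markers was 4246 to 6056 plain CPM in the wildtype samples and 4104 to 7405 in the knockout samples, where replicates 1 and 4 stood highest with 7405 and 6593. The 8 interneuron markers summed to 145 to 426 in wildtype and 34.8 to 138 in knockout. The 7 vascular markers summed to 59.3 to 73.9 and 17.0 to 27.7, with Vtn at 0 UMIs in both. The 5 oligodendrocyte precursor markers summed to 9.83 to 27.7 and 2.42 to 8.71, with Sox10 at 0 in both, and the 5 microglia markers to 6.14 to 22.1 and 0 to 4.89, with Trem2 at 0 in wildtype and Cx3cr1 and Csf1r at 0 in knockout. For interneuron, vascular, oligodendrocyte precursor and microglia markers the sums of the genotypes did not overlap and the knockout was lower. The 10 intermediate progenitor markers summed to 722 to 928 in wildtype and 964 to 1068 in knockout, higher in the knockout without overlap. The 18 apical progenitor markers summed to 6570 to 7578 and 3866 to 4673, lower without overlap. Of all single genes tested between the genotypes, 7.49% did not overlap, a share that does not apply to sums. The vascular sum was mostly Pdgfrb in wildtype, and the other 6 vascular markers summed to 14.7 to 27.7 in wildtype and 11.6 to 22.8 in knockout, with overlap. Without Erbb4 the other 7 interneuron markers summed to 49.4 to 122 and 9.79 to 48.2, without overlap. The precursor and microglia sums rest on few UMIs, 29 and 22 in all of wildtype and 11 and 7 in knockout. The 4 erythroid markers summed to 329 to 769 and 199 to 486, the 8 choroid plexus and hem markers to 55.3 to 148 and 29.8 to 94.6, the 4 Cajal-Retzius markers to 11.1 to 45.5 and 13.0 to 22.7, and the 2 meningeal fibroblast markers to 6.59 to 47.0 and 7.09 to 45.7, all with overlap. At the other angles of cluster 4 the interneuron sums overlapped (275 to 334 in wildtype and 91.3 to 324 in knockout). The vascular, oligodendrocyte precursor, microglia and apical progenitor sums did not overlap there either, whereas the intermediate progenitor sums overlapped. The part of these sums in the results that follow was not tested beyond the settings named there.

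The share of cluster 4 at the G1/G0 angle was compared between the genotypes, to ask whether the knockout changes how many progenitors lie in this phase. Wildtype replicates 1 to 4 had 21.3, 12.1, 13.7 and 15.0%, and knockout replicates 1 to 4 had 14.7, 11.3, 11.3 and 15.8%. Wildtype replicate 1 was the highest (353 of 1658 nuclei, 95% Wilson interval 19.4% to 23.3%), and the others overlapped. The means were 15.53% ± 4.03 (SD, n = 4) in wildtype and 13.3% ± 2.33 in knockout. The mean difference, knockout minus wildtype, was -2.26 percentage points, with p = 0.486 in an exact two-sided permutation test over the 70 arrangements of the samples, whose smallest possible p is 0.0286. It was -0.333 points without wildtype replicate 1, -3.41 without wildtype replicate 2 and -0.456 when G1 was called from gene scores after thinning. The difference was smaller than the spread between samples. Intervals cover counting error only.

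Included nuclei were then compared with the other nuclei of cluster 4 within the wildtype samples, to ask how progenitors at the G1/G0 angle differ from cycling ones. Beside the low cell cycle transcripts, 4 of 8 genes of intermediate progenitors and 5 of 13 genes of neurons were higher at the G1/G0 angle. By contrast, 4 of 11 genes of the hedgehog pathway and 5 of 13 of the FGF and ERK pathway were lower. The largest rises included Lrp2 and Hepacam. Levels in this comparison are CPM with TMM scaling factors, and a gene is called if its adjusted p is under 0.05 in edgeR's quasi-likelihood test with the sample as a block. Of 11200 genes tested, 438 belong to cell cycle lists or families that can have set the angle. They are described with no test, and their median log2 difference was -0.71. Of the other 10762 genes, 648 were called higher (6.02%) and 732 lower (6.8%), with a median log2 difference of 0.037. A narrower window, from 7π/4 to π/4, is one of the alternatives named below. The counts were 229 and 290 with DESeq2, 360 and 494 without the sample as a block, and 408 and 464 without wildtype replicate 1. The reference genes of the deposited angle are not given in the sources used here, so genes outside these lists may also have weighed in it. All gene lists were chosen with earlier results of these data known, so their counts describe the lists and do not test them.

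Cell cycle genes were low at the G1/G0 angle, as the selection requires. Top2a was at 17.0, 8.26, 23.2 and 22.9 CPM in wildtype replicates 1 to 4, against 472, 547, 431 and 472 at other angles. Mki67, the Ki-67 antigen of proliferating cells, was at 15.8, 8.26, 3.32 and 22.9, against 169, 159.8, 116 and 145, and Cenpf, a kinetochore protein, at 15.8, 16.5, 9.95 and 36.7, against 185, 213, 202 and 199.97. Mcm2, of the pre-replicative complex, differed little, at 19.4, 30.3, 16.6 and 29.8, against 21.7, 27.8, 17.0 and 23.6. Of the 53 G2/M genes in the fit, 53 had a negative log2 difference, and of the 41 S phase genes 40 did. Among the 5 genes outside the lists with the strongest drop were several with known roles in division. Ankle1, a nuclease of the midbody, and Gm550, an uncharacterised gene, were at 0 in all 4 samples, against 31.4 to 44.0 and 14.3 to 17.4 CPM at other angles. Rtkn2, a GTPase effector, Pif1, a DNA helicase, and Ccnf, cyclin F, were at 0 to 2.75, 0 to 3.64 and 2.29 to 6.07 CPM, against 103 to 124, 108 to 136 and 115 to 134.

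Of the 4 markers Pax6 alone passed the threshold in the edgeR fit and was lower at the G1/G0 angle. It was at 42.5, 44.1, 33.2 and 50.4 CPM in wildtype replicates 1 to 4 and at 65.9, 63.4, 63.7 and 71.0 in the other cluster 4 nuclei of the same samples (log2 difference -0.62 ± 0.17 (SE), adjusted p = 0.00584). Every sample moved down. The adjusted p was 0.0651 without wildtype replicate 1, 0.142 with DESeq2 and 0.068 in the narrower window. Slc1a3 was at 1031, 721, 836 and 866, against 904, 811, 844 and 845, a difference within the spread (0.02 ± 0.07, adjusted p = 0.89). Hes5 was higher in 3 of 4 samples, 83.8, 90.9, 43.1 and 82.5 against 66.7, 58.2, 43.2 and 60.2 (0.39 ± 0.15, adjusted p = 0.0661), with an adjusted p of 0.0443 without wildtype replicate 3. Hopx was at 54.6, 33.0, 23.2 and 50.4, against 42.2, 30.4, 25.3 and 31.2 (0.35 ± 0.19, adjusted p = 0.235). Of the 18 apical progenitor markers tested, Pax6 and Ptn, a secreted growth factor, were called lower and none higher. Ptn was at 1668 to 2002, against 1981 to 2233 CPM (-0.21 ± 0.06, adjusted p = 0.0123; 0.0706 to 0.148 without wildtype replicate 1 or 3, 0.258 with DESeq2, 0.191 in the narrower window and 0.148 without the sample as a block). The number called lower became 0 without wildtype replicate 1, with DESeq2 or in the narrower window and 1 without wildtype replicate 3 or without the sample as a block, and 4 of the 18 had an unadjusted p under 0.05. The list's median log2 difference was 0.05.

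Of the markers of intermediate progenitors, the daughters committed to neurogenesis, those called were all higher. Of 12 listed, 10 were in the gene table and 8 tested, and 4 were called higher and 0 lower. The number called higher became 2 without wildtype replicate 1, with DESeq2 or without the sample as a block. The list's median log2 difference was 0.35. Gadd45g was at 138, 110.1, 86.2 and 91.6 CPM in wildtype replicates 1 to 4, against 83.6, 61.4, 50.2 and 45.5 at other angles (log2 difference 0.82 ± 0.13 (SE), adjusted p = 2.17e-06). Btg2, an antiproliferative gene of neurogenic divisions, was at 143, 121, 129 and 163, against 94.3, 82.7, 72.8 and 90.1 (0.70 ± 0.12, adjusted p = 6.03e-06). Both genes were higher at the G1/G0 angle in every sample. Neurog2, the proneural transcription factor, was at 151, 90.9, 46.4 and 75.6, against 87.9, 68.3, 58.02 and 53.2 (0.50 ± 0.14, adjusted p = 0.00848). It was higher in 3 of 4 samples, with replicate 1 far above the rest, and its adjusted p was 0.446 without wildtype replicate 1, 0.315 with DESeq2 and 0.141 without the sample as a block. Elavl4, an RNA-binding protein gene of young neurons, was the other called member (226 to 289 against 177 to 234 CPM, 0.29 ± 0.09, adjusted p = 0.0203; 0.055 to 0.126 without wildtype replicate 1, 3 or 4, 0.243 with DESeq2, 0.053 with no filter on low counts, 0.0567 in the narrower window and 0.0952 without the sample as a block). Eomes, the defining transcription factor of intermediate progenitors, varied from 11.1 to 50.4 plain CPM at the G1/G0 angle, around its level at other angles (20.5 to 31.8) and below that in cluster 5 (63.9 to 119).

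The called genes of neurons were also higher. Of 13 excitatory neuron markers tested, 5 were called higher and 0 lower, 13 had a positive log2 difference, and the median was 0.22. Sox5, a called member and a transcription factor of deep-layer neurons, was at 869, 942, 1134 and 864 CPM, against 570.0, 645.97, 826 and 767 (log2 difference 0.45 ± 0.07 (SE), adjusted p = 8.95e-07). It was higher in all 4 samples. The summed excitatory neuron markers moved with it: they took 4246 to 6056 plain CPM at the G1/G0 angle and 3139 to 4198 at other angles, and whether they came from transcription in these nuclei or from free RNA was not tested. Gad1, which makes the transmitter of interneurons, moved the other way, 2.43, 2.75, 6.63 and 2.29 against 12.8, 7.19, 7.85 and 9.87 (-1.68 ± 0.54, adjusted p = 0.0253; 0.09 to 0.36 without wildtype replicate 1 or 4, 0.0563 in the narrower window and 0.0554 without the sample as a block).

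**Figure D3:**
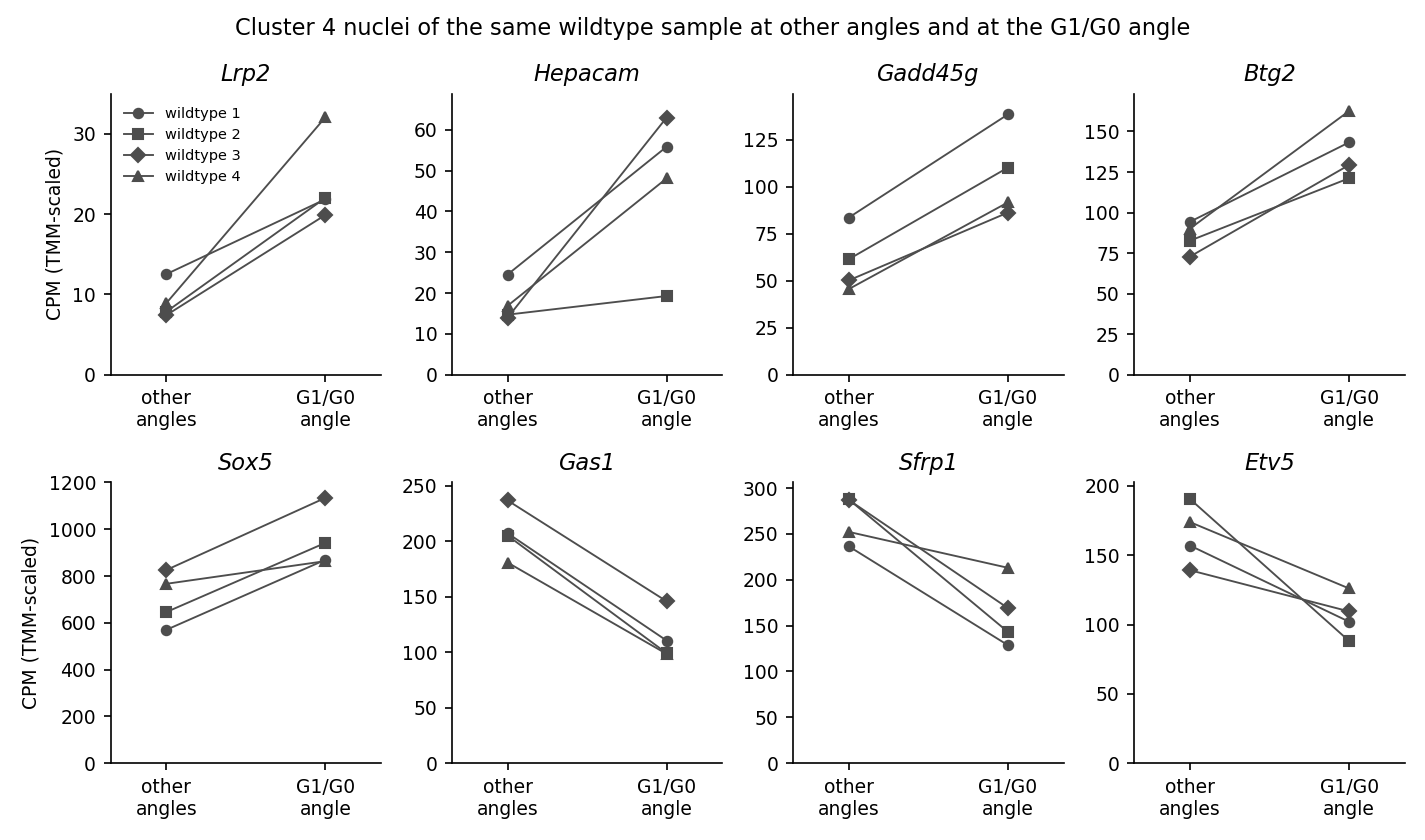
Levels (CPM with TMM factors, each axis from 0) of 8 genes in cluster 4 nuclei at other angles and at the G1/G0 angle, with 1 line and symbol for each of the 4 wildtype samples. Lrp2, Hepacam, Gadd45g, Btg2 and Sox5 are higher and Gas1, Sfrp1 and Etv5 lower at the G1/G0 angle in all 4 samples.

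The largest rises among called genes that were higher in every sample and had at least 20 UMIs per sum were of mixed kinds. Lrriq1 (11.5 to 40.1 against 7.96 to 11.2 CPM, log2 difference 1.51) and Ccdc30 (27.5 to 43.7 against 9.87 to 17.6, 1.39) encode a leucine-rich repeat and a coiled-coil protein. Hepacam, an adhesion molecule of glia, was at 55.9, 19.3, 63.0 and 48.1 CPM, against 24.5, 14.7, 14.0 and 16.9 (log2 difference 1.34 ± 0.21 (SE), adjusted p = 1.43e-06). Lrp2, the endocytic receptor megalin of the ventricular surface, was at 21.9, 22.0, 19.9 and 32.1, against 12.5, 7.84, 7.42 and 8.92 (1.30 ± 0.30, adjusted p = 0.00079). Ano1, a calcium-activated chloride channel, was at 209, 41.3, 66.3 and 91.6, against 64.9, 25.2, 14.8 and 55.1 (1.36 ± 0.16, adjusted p = 2.01e-10), and replicate 1 stood far above the others at the G1/G0 angle. Scml4 (log2 difference 1.44), Pdgfrb, a growth factor receptor best known from pericytes (1.30), Otx2os1, a noncoding gene named for the opposite strand of Otx2 (1.40), and the predicted gene Gm10046 (1.71) were others. Whether the counting used strand is not given in the sources used here, so transcripts of Otx2os1 and of Otx2 cannot be told apart where they overlap. The adjusted p of Otx2os1 was 0.0591 without the sample as a block.

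Genes of glia and of late radial glia did not move as a list. Of 21 glial competence genes tested, 2 were called higher and 2 lower, with a median log2 difference of 0.13. Slc1a2, the glutamate transporter GLT-1 of astrocytes, was at 276, 151, 169 and 190.1 CPM, against 143, 75.8, 119 and 106 (log2 difference 0.85 ± 0.11 (SE), adjusted p = 2.27e-09). Stat3, the effector of gliogenic cytokine signals, was at 99.6, 79.9, 53.1 and 101, against 49.6, 49.3, 42.3 and 37.3 (0.94 ± 0.15, adjusted p = 2.2e-06). Both were higher in every sample. Gli3 and Fgfr3, which also belong to the pathway lists below, were the called members that were lower. The number called lower became 1 without wildtype replicate 1, 2, 3 or 4, with DESeq2, with RLE size factors, in the narrower window or without the sample as a block, and the number called higher became 4 in the narrower window. Among 22 genes of glial metabolism, 21 were tested and Slc1a2 was the called rise, while 2 were called lower, among them Psat1, an enzyme of serine synthesis (29.8 to 55.9 against 59.8 to 70.2 CPM, -0.69 ± 0.17, adjusted p = 0.00271; 0.0621 with DESeq2 and 0.169 in the narrower window). The number called higher became 2 without wildtype replicate 2.

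Signalling pathways moved unevenly, to be read against 6.02% called higher and 6.8% lower over all genes outside the cell cycle. In the hedgehog pathway, in which Gas1, Boc and Cdon help the ligand to bind and Gli3 is the main repressor of the cortex, 4 of 11 genes tested were called lower and 0 higher (median -0.28). The number called higher became 1 without wildtype replicate 4 or in the narrower window. Gas1 was at 111, 99.1, 146 and 98.5 CPM, against 207, 205, 237 and 181 (log2 difference -0.88 ± 0.11 (SE), adjusted p = 2.48e-09). Gli3 was at 1382, 1316, 1091 and 1262, against 1639, 1861, 1673 and 1646 (-0.43 ± 0.06, adjusted p = 4.35e-07), and Cdon at 486 to 587, against 668 to 722 (-0.40 ± 0.07, adjusted p = 2.51e-05). All 3 fell in every sample. In the FGF and ERK pathway 5 of 13 genes were called lower and 0 higher (median -0.15). The number called lower became 2 without wildtype replicate 2 or with DESeq2. It became 3 without wildtype replicate 1, in the narrower window or without the sample as a block. Etv5, a transcription factor induced by FGF, was at 102, 88.1, 109 and 126, against 157, 190.5, 139 and 174 (-0.63 ± 0.12, adjusted p = 3.78e-05), and Spred1, an inhibitor of ERK signalling, at 163 to 236, against 254 to 295 (-0.42 ± 0.09, adjusted p = 0.000528).

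Of 23 Wnt genes tested, 2 were called higher and 3 lower (median 0.03), against 6.02% higher and 6.8% lower over all genes outside the cell cycle. The BMP and Notch counts below are to be read against the same shares. The number called higher became 1 without wildtype replicate 2 or 4, with DESeq2 or without the sample as a block, and the number called lower became 1 with DESeq2, in the narrower window or without the sample as a block. The ligand gene Wnt7b rose, from 40.6, 46.4, 53.7 and 40.1 CPM at other angles to 59.5, 90.9, 79.6 and 84.8 (log2 difference 0.78 ± 0.16 (SE), adjusted p = 0.000101), and Sfrp1, a secreted Wnt antagonist, fell from 236, 288, 287 and 252 to 129, 143, 169 and 213 (-0.71 ± 0.10, adjusted p = 2.21e-07). Both changed in the same direction in all 4 samples. Of 14 BMP genes 2 were called lower and 0 higher (median -0.13), Smad6, an inhibitor of the pathway (27.5 to 42.5 against 63.9 to 65.9 CPM, -0.83 ± 0.18, adjusted p = 0.000327), and the receptor Bmpr1b (184 to 225 against 249 to 319.9, -0.42 ± 0.10, adjusted p = 0.000987; 0.0573 with DESeq2). Of 19 Notch genes, Notch2 alone was called in the edgeR fit and was lower (297 to 424 against 415 to 494 CPM, -0.30 ± 0.09, adjusted p = 0.00885). Its adjusted p was 0.0543 to 0.187 without wildtype replicate 2 or 3, 0.17 with DESeq2, 0.142 in the narrower window and 0.0834 without the sample as a block. The number of Notch genes called higher became 1 without wildtype replicate 2 or 3.

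Genes of the apical junction, which anchors the progenitor at the ventricle, were called in both directions. Of 22 tested, 3 were called higher and 2 lower, against 6.02% higher and 6.8% lower over all genes outside the cell cycle, 17 had a negative log2 difference and the median was -0.11. The number called lower became 0 with DESeq2, 1 without wildtype replicate 2, 3 or 4, with RLE size factors, in the narrower window or without the sample as a block and 4 with no filter on low counts. Ctnna2, the neural alpha-catenin, was at 2651, 2439.8, 2789 and 2547 CPM, against 1677, 1562, 1881 and 1713 (log2 difference 0.61 ± 0.06 (SE), adjusted p = 3.35e-13), and Prkcz, an atypical protein kinase C gene, at 53.1 to 66.4, against 33.1 to 39.9 (0.72 ± 0.17, adjusted p = 0.000919). Both rose in every sample, whereas Fat1, an atypical cadherin, was at 106 to 143, against 161 to 180.2 (-0.47 ± 0.11, adjusted p = 0.000976; 0.0608 with DESeq2 and 0.0941 in the narrower window). Of 19 patterning factors 2 were called higher and 3 lower (median -0.22). Beside Pax6, Sox6 was lower (1379.6 to 1610.5 against 1729.6 to 1838 CPM, -0.25 ± 0.06, adjusted p = 0.00247; 0.0604 without wildtype replicate 2, 0.126 with DESeq2 and 0.055 without the sample as a block). The number called higher became 0 with DESeq2 or without the sample as a block and 1 without wildtype replicate 1, and the number called lower became 0 with DESeq2 and 1 without wildtype replicate 2, in the narrower window or without the sample as a block. Of 5 choroid plexus and hem markers tested, Otx2 (1.91) and Wnt8b (1.12), both expressed in the cortical hem, were called higher, and the number called higher became 0 without wildtype replicate 1 or 4, with DESeq2 or without the sample as a block. The summed level of the 8 such markers was 55.3 to 148 plain CPM at the G1/G0 angle and 21.9 to 138 at other angles.

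Several other called members of the lists lost their call in at least 1 alternative, each as given beside it. Lef1, a transcription factor of Wnt signalling, was higher (0.37 ± 0.11, adjusted p = 0.0167; 0.118 to 0.442 without wildtype replicate 2 or 4, 0.303 with DESeq2 and 0.176 without the sample as a block), and its relatives Tcf7l1 (-0.26 ± 0.08, adjusted p = 0.0137; 0.23 without wildtype replicate 2, 0.243 with DESeq2, 0.629 in the narrower window and 0.108 without the sample as a block) and Tcf7l2 (-0.36 ± 0.08, adjusted p = 0.00108; 0.0578 with DESeq2, 0.109 in the narrower window and 0.0505 without the sample as a block) were lower. Etv1, a relative of Etv5, was lower (-0.59 ± 0.17, adjusted p = 0.0103; 0.0626 without wildtype replicate 2, 0.177 with DESeq2 and 0.211 in the narrower window), as was the receptor Fgfr3 (-0.42 ± 0.15, adjusted p = 0.0471; 0.0526 to 0.214 without wildtype replicate 1, 2, 3 or 4, 0.388 with DESeq2, 0.0533 with RLE size factors, 0.0689 in the narrower window and 0.109 without the sample as a block). Of the junction genes, the apical polarity gene Crb1 was higher (0.91 ± 0.24, adjusted p = 0.00489; 0.0549 to 0.13 without wildtype replicate 1 or 4 and 0.145 with DESeq2) and Ctnna1, another alpha-catenin, lower (-0.26 ± 0.09, adjusted p = 0.0465; 0.0612 to 0.478 without wildtype replicate 2, 3 or 4, 0.356 with DESeq2, 0.0556 with RLE size factors, 0.351 in the narrower window and 0.134 without the sample as a block). Of the patterning factors, Nr2f2, also called COUP-TFII, was higher (0.37 ± 0.10, adjusted p = 0.00609; 0.115 with DESeq2 and 0.204 without the sample as a block) and Tfap2c lower (-0.44 ± 0.14, adjusted p = 0.0249; 0.0587 to 0.222 without wildtype replicate 1, 2 or 3, 0.25 with DESeq2, 0.35 in the narrower window and 0.104 without the sample as a block). Among markers of other cells, Reln of Cajal-Retzius cells (0.78 ± 0.27, adjusted p = 0.0445; 0.102 to 0.706 without wildtype replicate 1 or 4, 0.524 with DESeq2, 0.0534 with no filter on low counts, 0.172 in the narrower window and 0.0957 without the sample as a block), Dcn of fibroblasts (1.24 ± 0.30, adjusted p = 0.00164; 0.0615 with DESeq2 and 0.0991 without the sample as a block) and the globin genes Hba-a2 (0.65 ± 0.19, adjusted p = 0.0118; 0.0819 to 0.143 without wildtype replicate 3 or 4, 0.159 with DESeq2 and 0.107 without the sample as a block) and Hbb-bs (0.32 ± 0.09, adjusted p = 0.0081; 0.278 without wildtype replicate 4, 0.205 with DESeq2, 0.111 in the narrower window and 0.424 without the sample as a block) were higher. Gpr45, a receptor gene listed around the Pantr2 locus, was higher too (0.87 ± 0.27, adjusted p = 0.0183; 0.0594 to 0.173 without wildtype replicate 2, 3 or 4, 0.127 with DESeq2, 0.23 in the narrower window and 0.0825 without the sample as a block).

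Pantr1, the long noncoding RNA gene beside the Pantr2 locus, was at 808, 592, 739.6 and 795 CPM at the G1/G0 angle and 888, 875, 821 and 892 at other angles in wildtype (log2 difference -0.24 ± 0.07 (SE), adjusted p = 0.0126). Every sample was lower, most of all replicate 2, and the adjusted p was 0.249 without wildtype replicate 2, 0.248 with DESeq2 and 0.153 without the sample as a block. Rgs6, a regulator of G protein signalling, was higher in every sample, 174, 154, 172 and 188 against 55.2, 104, 93.3 and 157 (0.87 ± 0.13, adjusted p = 3.91e-07), with an adjusted p of 0.0517 without the sample as a block. Nfix, a transcription factor of late radial glia, did not change beyond the spread, with 474, 617, 653 and 515 against 534, 557, 670.0 and 553 (-0.05 ± 0.07, adjusted p = 0.764).

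Knockout and wildtype were next compared within the included nuclei, to ask which genes of progenitors at the G1/G0 angle depend on the genotype. In the knockout 5 of 16 markers of apical progenitors and 6 of 17 genes of glial competence were lower. Among them were Slc1a3, Ptprz1, Tnc, Mfge8, Slc1a2, Ednrb and Egfr, of which Slc1a3, Ptprz1 and Tnc belong to both lists. Another 2 of the 17, Nfia and Nfib, were higher, as were a few genes of neurogenesis, such as Rnd2. Of 6860 genes tested with edgeR, 208 were called (3.03%), 45 of them higher in the knockout (0.656%) and 163 lower (2.38%). The samples of the genotypes did not overlap for 514 of all genes tested (7.49%) and for 185 of the 208, which were chosen by their p. The count was 172 with DESeq2, 103 (19 higher, 84 lower) without wildtype replicate 1, and 154 (27 higher) without knockout replicate 3. In nuclei without a UMI of Eomes, Neurod1, Neurod2 or Neurod6, which left 342 wildtype and 220 knockout nuclei, 54 of 3451 genes were called. The median log2 fold change of all genes tested was -0.00091. Since the gene lists were chosen with earlier results of these data known, list counts above the shares over all genes are description only.

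Of the apical progenitor markers, those called were all lower. Of 20 listed, 18 were in the gene table and 16 tested; 5 were called lower, 0 higher, 12 had a negative log2 fold change and the median was -0.57. The number called lower became 2 in nuclei without neuronal UMIs and 8 without wildtype replicate 3. Ptprz1, a receptor phosphatase of radial glia, was at 1897, 1659, 1798 and 1871 CPM in wildtype replicates 1 to 4 and at 979.8, 699.6, 653 and 979 in knockout replicates 1 to 4 (log2 fold change -1.12 ± 0.14 (SE), adjusted p = 0.000204). Every knockout sample lay below every wildtype sample. Mfge8, a secreted protein that aids phagocytosis, was at 203, 237, 250.2 and 183 in wildtype and 51.7, 81.9, 73.2 and 101 in knockout (-1.52 ± 0.18, adjusted p = 0.000139). Tnc, the extracellular matrix protein tenascin C, was at 173, 173, 155 and 154 in wildtype and 50.2, 61.4, 79.3 and 109 in knockout (-1.19 ± 0.20, adjusted p = 0.00173), and at an adjusted p of 0.12 in nuclei without neuronal UMIs. None of these 3 genes had overlapping groups, and their calls held in each fit without 1 sample. Beside Slc1a3, Ptn was the other called marker (1787, 2127, 1942 and 1980.3 CPM in wildtype and 808, 1331, 829.8 and 1268 in knockout, -0.89 ± 0.16, adjusted p = 0.00383; 0.118 in nuclei without neuronal UMIs).

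Slc1a3 was at 1104, 766, 888 and 922 CPM in wildtype replicates 1 to 4 and 476, 614, 577 and 707 in knockout replicates 1 to 4 (log2 fold change -0.64 ± 0.14 (SE), adjusted p = 0.0189). The groups did not overlap, and wildtype replicate 1 was the highest. The adjusted p was 0.0557 to 0.11 without wildtype replicate 1 or 4 or without knockout replicate 1 or 3, 0.0558 in the narrower window and 0.143 in nuclei without neuronal UMIs. Hes5 was at 89.7, 96.5, 45.8 and 87.8 in wildtype and 56.3, 52.9, 51.9 and 33.8 in knockout (-0.73 ± 0.23, adjusted p = 0.119). Wildtype replicate 3 lay among the knockout samples, and the adjusted p was 0.0291 without it. Pax6 was at 45.5, 46.8, 35.2 and 53.7 in wildtype and 42.6, 64.8, 61.02 and 52.0 in knockout, with overlapping groups (0.25 ± 0.22, adjusted p = 0.729). Hopx had too few UMIs for the fit: 45, 12, 7 and 22 in wildtype and 11, 14, 4 and 8 in knockout.

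Of 24 genes of outer radial glia and glial competence, 21 were in the gene table and 17 tested; 6 were called lower and 2 higher, with a median log2 fold change of -0.21. The number called lower became 3 in nuclei without neuronal UMIs, where Egfr had too few UMIs for the fit, and the number called higher became 0 without wildtype replicate 1, 2 or 4 or without knockout replicate 2 or 3, in the narrower window or in nuclei without neuronal UMIs and 1 without knockout replicate 4 or in nuclei without hem UMIs. Beside Tnc, Ptprz1 and Slc1a3, the lower genes were Slc1a2, Ednrb and Egfr. Slc1a2 was at 295, 161, 179.8 and 202 CPM in wildtype and 59.3, 71.7, 54.9 and 96.1 in knockout (log2 fold change -1.62 ± 0.21 (SE), adjusted p = 0.000204). Ednrb, the endothelin receptor B of glial progenitors, was at 203, 105, 169 and 198 in wildtype and 56.3, 52.9, 61.02 and 52.0 in knockout (-1.63 ± 0.20, adjusted p = 0.000149). Egfr, whose signal precedes gliogenesis, was at 46.8, 46.8, 35.2 and 39.0 in wildtype and 7.61, 10.2, 9.15 and 7.79 in knockout (-2.27 ± 0.29, adjusted p = 0.000204), resting on 78 and 17 UMIs. The knockout samples of these 3 genes lay below all wildtype samples, and those of Ednrb and Egfr lay close together. Both called rises were transcription factors of gliogenesis. Nfia was at 3117, 3335, 3137 and 3009 CPM in wildtype and 3988, 4793, 4775 and 4261 in knockout (0.50 ± 0.12, adjusted p = 0.0258), and Nfib at 3509.9, 4034, 4244 and 3468 in wildtype and 5368, 4996, 5318 and 5232 in knockout (0.46 ± 0.12, adjusted p = 0.0495). The groups did not overlap for either gene. Among 15 genes of glial metabolism tested, Slc1a3 and Slc1a2 were the called ones (median -0.13), and the number called lower became 1 without wildtype replicate 1 or 4 or in nuclei without neuronal UMIs and 4 without wildtype replicate 3 or with no filter on low counts. The adjusted p of Nfia was 0.0527 to 0.0905 without wildtype replicate 1, 2 or 4 or without knockout replicate 2 or 3, 0.0761 in the narrower window and 0.0836 in nuclei without neuronal UMIs. That of Nfib was 0.0587 to 0.183 without wildtype replicate 1, 2 or 4 or without knockout replicate 1, 2, 3 or 4, 0.124 in the narrower window, 0.193 in nuclei without neuronal UMIs and 0.0572 in nuclei without hem UMIs.

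**Figure D4:**
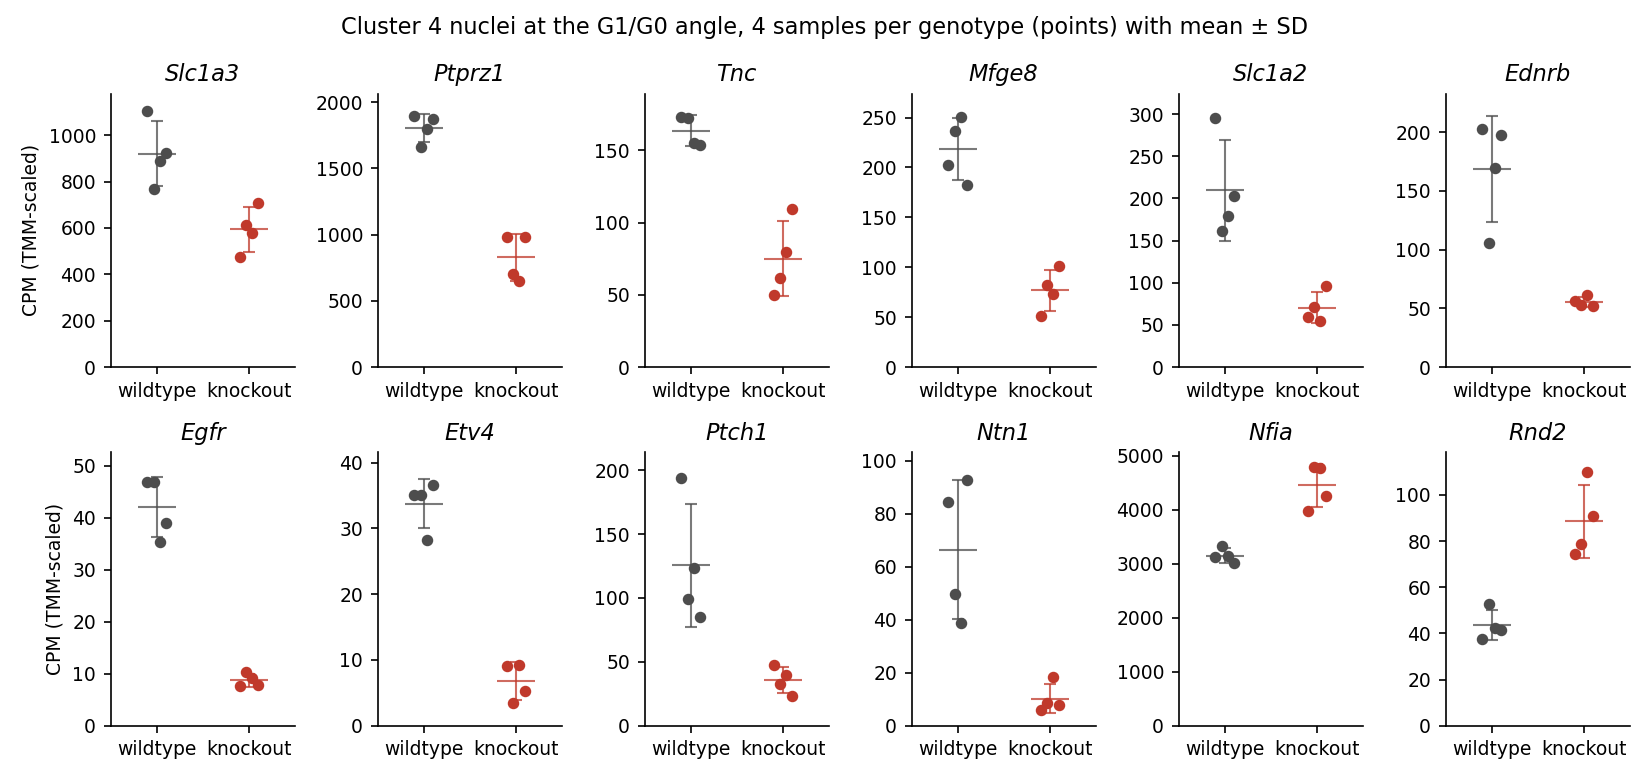
Levels (CPM with TMM factors, each axis from 0) of 12 genes in cluster 4 nuclei at the G1/G0 angle, with points for the 4 wildtype (grey) and 4 knockout (red) samples and mean ± SD. Slc1a3, Ptprz1, Tnc, Mfge8, Slc1a2, Ednrb, Egfr, Etv4, Ptch1 and Ntn1 are lower and Nfia and Rnd2 higher in every knockout sample than in every wildtype sample.

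Genes of neurogenesis that were called were higher. Of 8 intermediate progenitor markers tested 2 were called higher and 0 lower (median 0.39), and the number called higher became 0 without wildtype replicate 1, in the narrower window or in nuclei without neuronal UMIs and 1 without wildtype replicate 2 or 4 or without knockout replicate 1, 2 or 3, with DESeq2 or in nuclei without hem UMIs. In nuclei without neuronal UMIs Rnd2 had too few UMIs for the fit. Rnd2, a small GTPase of neuronal migration, was at 37.7, 52.7, 42.3 and 41.5 CPM in wildtype and 74.6, 78.5, 109.8 and 90.9 in knockout (log2 fold change 1.02 ± 0.20 (SE), adjusted p = 0.00796). The groups did not overlap, and the adjusted p was 0.0611 without wildtype replicate 1 and 0.0622 in the narrower window. Elavl4 was at 309.5, 239.9, 299.6 and 254 in wildtype and 426, 401, 421 and 338 in knockout (0.52 ± 0.13, adjusted p = 0.0354). Its adjusted p was 0.056 to 0.12 without wildtype replicate 1, 2 or 4 or without knockout replicate 1, 2 or 3, 0.0606 with DESeq2, 0.184 in the narrower window, 0.412 in nuclei without neuronal UMIs and 0.0563 in nuclei without hem UMIs. Eomes, not called, was at 11.1 to 50.4 plain CPM in wildtype and 45.9 to 66.8 in knockout.

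Of 13 excitatory neuron markers tested, Neurod6 was called higher, 0 lower, and the median log2 fold change was 0.33. The number called higher became 0 without wildtype replicate 1, in the narrower window or in nuclei without neuronal UMIs and 2 without knockout replicate 2 or 3 or with no filter on low counts. Neurod6 is 1 of the genes that nuclei without neuronal UMIs lack by choice. It was at 169, 266, 219 and 209.7 CPM in wildtype and 397, 323, 284 and 408 in knockout (log2 fold change 0.74 ± 0.16 (SE), adjusted p = 0.0135), and its adjusted p was 0.0816 without wildtype replicate 1 and 0.0955 in the narrower window. The ranges of this gene also lay apart outside these nuclei, with 158 to 198 against 249.6 to 302 plain CPM at the other angles of cluster 4 and 377 to 399.8 against 494 to 536 in cluster 1. After thinning, 33.6% to 42.9% of the knockout nuclei at the G1/G0 angle and 48.9% to 53.8% of those in cluster 1 held a UMI of it. Free RNA from neurons as its source in progenitors was not tested. Of 13 patterning factors tested Emx1, a transcription factor of the dorsal telencephalon, was called higher (45.5, 29.3, 42.3 and 36.6 in wildtype and 60.9, 71.7, 82.4 and 72.7 in knockout CPM, 0.84 ± 0.21, adjusted p = 0.032), 0 were lower and the median was 0.24. The adjusted p of Emx1 was 0.0602 to 0.093 without wildtype replicate 1, 2 or 4 or without knockout replicate 2, 3 or 4, 0.104 with DESeq2, 0.122 in the narrower window and 0.0546 in nuclei without hem UMIs. The number of patterning factors called lower became 1 without knockout replicate 2.

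Genes of signalling pathways were called in small numbers, to be read against the 2.38% lower and 0.656% higher over all genes. Ptch1, the hedgehog receptor and a target of the pathway, was at 194, 99.5, 123 and 85.4 CPM in wildtype and 47.2, 32.4, 39.7 and 23.4 in knockout (log2 fold change -1.84 ± 0.28 (SE), adjusted p = 0.000752), and was the called member among 8 hedgehog genes tested (median -0.02). The number of hedgehog genes called higher became 1 without knockout replicate 1, with no filter on low counts or with Xist as a covariate, and the number called lower became 2 with no filter on low counts. The groups did not overlap. Of 10 genes of the FGF and ERK pathway, Etv4 and Egfr were called lower, 0 higher, and the median was -0.40. Egfr is also counted in the glial competence list above. The number called lower became 0 in nuclei without neuronal UMIs and 1 in the narrower window or in nuclei without hem UMIs; Etv4 had too few UMIs for the fit in these 3 sets and Egfr in the narrower window and in nuclei without neuronal UMIs, both were called wherever tested, and the gene called in the narrower window was Etv5. Etv4, a transcription factor induced by FGF, was at 35.1, 35.1, 28.2 and 36.6 in wildtype and 9.13, 3.41, 9.15 and 5.196 in knockout (-2.32 ± 0.34, adjusted p = 0.000683), from 62 and 13 UMIs. Of 18 Wnt genes Tcf4 was called higher and 0 lower (median -0.10). Tcf4 encodes an E protein, a partner of proneural factors and not a Wnt effector, and was at 3701, 4075, 4378 and 3714 in wildtype and 5279, 5693, 6132 and 5770.2 in knockout (0.53 ± 0.12, adjusted p = 0.0199). Its adjusted p was 0.0531 to 0.0908 without wildtype replicate 1, 2 or 4 or without knockout replicate 3.

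Neither edgeR nor DESeq2 called a gene among 14 Notch genes (4 with an unadjusted p under 0.05, median -0.24), 12 BMP genes (0, median 0.10) or 21 genes of the apical junction (2, median 0.02). The number of Notch genes called lower became 1 without wildtype replicate 3 or without knockout replicate 3, and that of junction genes 1 with Xist as a covariate. Cell cycle genes gave 1 call. No S phase gene was called among 20 tested (0 with an unadjusted p under 0.05 and 0 by DESeq2, median 0.12), and no G1 cyclin, kinase or inhibitor among 12 (1 and 0, median -0.03). Of 15 G2/M genes Hjurp, the chaperone that loads the centromeric histone, was called lower, at 80.6, 46.8, 59.9 and 63.4 CPM in wildtype and 10.7, 25.6, 15.3 and 10.4 in knockout (-2.03 ± 0.30, adjusted p = 0.000681), and the number called lower became 0 in the narrower window or in nuclei without neuronal UMIs, where Hjurp had too few UMIs for the fit. Of 4 erythroid markers tested, whose sums are given above, edgeR and DESeq2 called 0, and 3 had an unadjusted p under 0.05.

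Erbb4 and Pdgfrb, both lower in the knockout, belonged to lists of other cell types. Erbb4, a neuregulin receptor of interneurons, was at 165, 377, 102 and 156 CPM in wildtype and 95.9, 39.2, 12.2 and 39.0 in knockout (log2 fold change -1.94 ± 0.40 (SE), adjusted p = 0.00974; 0.0626 with DESeq2 and 0.568 in nuclei without neuronal UMIs). It was highest in wildtype replicate 2, and every knockout sample lay below every wildtype sample. Pdgfrb was at 49.4, 43.9, 35.2 and 51.2 in wildtype and 3.04, 5.12, 9.15 and 10.4 in knockout (-2.85 ± 0.35, adjusted p = 0.000139), with the groups far apart. It is 1 of the 7 vascular markers summed above, and the other 6 had too few UMIs for the test. The part of vascular or interneuron nuclei in these differences was not tested.

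The largest falls among called genes with no overlap and at least 10 UMIs per sample on average were those of mt-Nd3, Ano1, Gm17167, Otx2os1, Ntn1, Slc6a11, Pdgfrb and Abat. Ano1 was at 224, 43.9, 70.5 and 97.6 CPM in wildtype and 9.13, 0, 24.4 and 13.0 in knockout (log2 fold change -3.59 ± 0.57 (SE), adjusted p = 0.00133). Knockout replicate 2 had no UMI of it, and wildtype replicate 1 stood far above the rest. Ntn1, the guidance molecule netrin 1, was at 84.5, 49.7, 38.8 and 92.7 in wildtype and 6.09, 8.53, 18.3 and 7.79 in knockout (-2.89 ± 0.37, adjusted p = 0.000196). Slc6a11, a GABA transporter of astrocytes, was at 61.1, 32.2, 49.3 and 46.3 in wildtype and 10.7, 6.83, 3.05 and 2.598 in knockout (-2.85 ± 0.37, adjusted p = 0.000204), and Abat, which degrades GABA, at 65.0, 29.3, 42.3 and 85.4 in wildtype and 9.13, 6.83, 12.2 and 13.0 in knockout (-2.54 ± 0.37, adjusted p = 0.000589). Both genes were lower in every knockout sample than in every wildtype sample. Otx2os1 was at 121, 43.9, 31.7 and 43.9 in wildtype and 7.61, 1.71, 27.5 and 5.196 in knockout (-2.93 ± 0.55, adjusted p = 0.0046; 0.0567 without wildtype replicate 1, 0.0605 with DESeq2 and 0.0773 in the narrower window).

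The largest rises were Gm28438, Dnajc22, Tpm3-rs7, Gm49450, 4930578M01Rik, Adamtsl4, Gm20646 and Adamts17. Several are predicted genes with near-identical copies, and their UMIs may have been split between copies. Whether such splitting differed between the genotypes was not tested. The sequences compared here are reference transcripts, and those of the embryos were not compared. Gm28438 (ENSMUSG00000101939) and mt-Nd3 (ENSMUSG00000064360), a mitochondrial gene of respiratory complex I, are such a pair: over 345 aligned bases their transcripts in GENCODE M21 differ at 1 base. The first 60 bases of both transcripts are shown because this base, in capitals, is what separates the largest rise from the largest fall. It is T3C, counted from the 5′ end, with the base of mt-Nd3 first.
mt-Nd3: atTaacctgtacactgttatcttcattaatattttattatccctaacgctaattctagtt
Gm28438: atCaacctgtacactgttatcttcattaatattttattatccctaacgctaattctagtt

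Gm28438 had 0 UMIs in wildtype and 342 in knockout, 137, 164, 284 and 164 CPM in knockout replicates 1 to 4. Against 3 UMIs over the wildtype group this is at least 105-fold higher (adjusted p = 1.6e-06). mt-Nd3 moved the opposite way, from 67.6, 193, 141 and 309.7 CPM in wildtype to 3.04, 5.12, 3.05 and 5.196 in knockout (log2 fold change -5.31 ± 0.56 (SE), adjusted p = 3.27e-05). The level lost at one copy was of the order of that gained at the other, means of 178 ± 102 and 187 ± 65.7 CPM (SD, n = 4). Tpm3-rs7, a copy of the tropomyosin gene Tpm3 (99.1% identical over 2108 bases), had 1 UMI in wildtype and 83 in knockout, a ratio of 76.4 with a 95% exact binomial interval of 13.3 to 3055. Gm17167, among the largest falls (313, 322, 285 and 358 in wildtype and 27.4, 49.5, 48.8 and 18.2 in knockout CPM, -3.15 ± 0.21, adjusted p = 1.61e-07), matched 17 other genes at 95% identity or more. How UMIs of such copies were assigned is not given in the sources used here, and these values are uncertain.

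Dnajc22, a heat shock protein 40 family gene, had 1 UMI in wildtype and 113 in knockout, a ratio of 104 with an interval of 18.3 to 4146, and no near-identical copy was found. It lies at chromosome 15, 98991051 to 99002618 in the deposited table. Gm49450, a predicted gene that matched 9 others, among them the alpha-tubulin gene Tuba1a, lies near it, at 98830018 to 98851432, and rose from 15.6, 17.6, 28.2 and 12.2 to 179.5, 199.7, 168 and 262 CPM (log2 fold change 3.52 ± 0.24 (SE), adjusted p = 1.61e-07). 4930578M01Rik, at 98881229 to 98894327, rose from 23.4, 17.6, 17.6 and 31.7 to 132, 147, 143 and 104 (2.50 ± 0.22, adjusted p = 3.78e-06). Thus 3 of the 8 largest rises lay within one stretch of chromosome 15. The other genes tested in this stretch are not described here, so no share can be set beside this count. UMIs of Gm49450 may also belong to its copies. The genome build of these positions is uncertain: the submitters' processing notes name mm10, but 333 of 14162 genes start where GENCODE M21 places them on that assembly.

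Adamtsl4, a gene of the extracellular matrix, was at 11.7, 14.6, 3.52 and 17.1 CPM in wildtype and 33.5, 56.3, 57.97 and 36.4 in knockout (log2 fold change 1.87 ± 0.34 (SE), adjusted p = 0.00386). Adamts17, a metalloprotease, was at 22.1, 23.4, 24.7 and 19.5 in wildtype and 91.3, 29.0, 48.8 and 62.4 in knockout (1.40 ± 0.34, adjusted p = 0.0285). Its adjusted p was 0.057 to 0.132 without wildtype replicate 1, 2 or 4 or without knockout replicate 1 or 4. Gm20646, a predicted gene of chromosome 1 (42734085 to 42783951), begins just beyond Pantr1 (42629942 to 42734002). It was at 29.9, 17.6, 24.7 and 19.5 CPM in wildtype and 63.9, 99.0, 70.2 and 77.9 in knockout (1.69 ± 0.24, adjusted p = 0.000587), with no overlap. Pantr1 itself was at 865, 629, 786 and 846 in wildtype and 793, 828, 1001 and 977 in knockout (0.20 ± 0.13, adjusted p = 0.614), within the spread. In the list of Pantr1 and other genes around the Pantr2 locus or discussed by the study, 7 of 10 were tested and neither edgeR nor DESeq2 called one (1 with an unadjusted p under 0.05, median 0.06). Gm20646 is not in that list. Nfix was at 507, 655, 694 and 549 in wildtype and 624, 849.8, 934 and 800.2 in knockout (0.42 ± 0.15, adjusted p = 0.176; 0.0385 without knockout replicate 1). Rgs6 was at 186, 164, 183 and 199.98 in wildtype and 307, 29.0, 42.7 and 236 in knockout (-0.21 ± 0.45, adjusted p = 0.909), with knockout replicates 1 and 4 above and replicates 2 and 3 far below all wildtype samples.

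Whether the genotype acted differently at the G1/G0 angle was tested as the interaction of genotype and angle in the 16 sums of the 8 samples, with the sample as a block. Few genes passed: 27 of 11606 (0.233%), 24 with a lower and 3 with a higher knockout effect at the G1/G0 angle, and 685 had an unadjusted p under 0.05. DESeq2 called 2. The count was 9 without wildtype replicate 1, 3 without wildtype replicate 4, and 15, 13, 7 and 8 without knockout replicates 1 to 4. For nearly all genes, then, no difference between the angle ranges was detectable in these samples. Levels below are plain CPM.

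Lrp1b, a large receptor of the LDL receptor family, was at 283, 296, 326 and 261 in wildtype and 173, 137, 183 and 145 in knockout at the G1/G0 angle. At other angles it was at 200.5, 155, 176 and 165 in wildtype and 254, 221, 175 and 143 in knockout. The groups were apart at the G1/G0 angle and overlapped elsewhere, with an interaction of -1.06 ± 0.15, adjusted p = 4.53e-05 (log2, SE). Shisa9, an auxiliary subunit of AMPA receptors, was at 138, 96.8, 129 and 106 in wildtype and 34.0, 29.4, 23.2 and 48.3 in knockout at the G1/G0 angle, and at 70.1, 55.0, 73.7 and 66.2 in wildtype and 41.7, 43.1, 52.6 and 68.5 in knockout elsewhere (-1.38 ± 0.21, adjusted p = 0.000245). These calls held in DESeq2 and in each fit without 1 sample. Kcnip4, a subunit of potassium channels, was lower in the knockout in both, from 602, 315, 333 and 633 to 133, 104, 90.0 and 140.1 at the G1/G0 angle, a log2 fold change of -2.01, against -0.87 ± 0.11 at other angles (-1.12 ± 0.18, adjusted p = 0.000501; 0.298 with DESeq2). Fstl5, a secreted protein (-0.64 ± 0.12, adjusted p = 0.0081; 0.0775 to 0.0944 without wildtype replicate 1 or 4 or without knockout replicate 2 and 0.206 with DESeq2), and Csmd1, a complement regulator (-0.51 ± 0.10, adjusted p = 0.0081; 0.0818 to 0.127 without wildtype replicate 1 or 4 or without knockout replicate 3 and 0.73 with DESeq2), followed.

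Among the genes described above, Ednrb, Mfge8 and Erbb4 fell more in the knockout at the G1/G0 angle than at other angles. They were picked out after their values were seen. The log2 fold change of Ednrb was -1.63 ± 0.20 at the G1/G0 angle and -0.66 ± 0.16 elsewhere (-0.91 ± 0.20, adjusted p = 0.0351; 0.116 to 0.478 without wildtype replicate 1 or 4 or without knockout replicate 2, 3 or 4 and 0.824 with DESeq2). That of Mfge8 was -1.52 ± 0.18 and -0.81 ± 0.17 (-0.67 ± 0.15, adjusted p = 0.0417; 0.0764 to 0.204 without wildtype replicate 1, 2 or 4 or without knockout replicate 1, 2, 3 or 4, 0.535 with DESeq2 and 0.237 in the narrower window). Erbb4 differed likewise, -1.94 ± 0.40 and -0.81 ± 0.35 (-1.16 ± 0.27, adjusted p = 0.0417; 0.0639 to 0.354 without wildtype replicate 1, 2 or 4 or without knockout replicate 1, 3 or 4 and 1 with DESeq2). For the others no difference passed: Ptprz1 had -1.12 ± 0.14 and -0.76 ± 0.07 (interaction adjusted p = 0.243), Slc1a3 -0.64 ± 0.14 and -0.51 ± 0.08 (0.943), and Tnc -1.19 ± 0.20 and -1.25 ± 0.14 (0.985).

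The 3 genes with a higher knockout effect at the G1/G0 angle were Chrna7, Lrrtm4 and Hs3st4, which encode a nicotinic receptor subunit, a synaptic adhesion molecule and a heparan sulfate sulfotransferase. Chrna7 was at 29.5, 52.5, 33.0 and 30.0 in wildtype and 109, 44.0, 55.2 and 135 in knockout at the G1/G0 angle (1.05 ± 0.24, adjusted p = 0.0417; 0.0698 to 0.254 without wildtype replicate 1, 3 or 4 or without knockout replicate 1, 3 or 4, 0.73 with DESeq2 and 0.109 in the narrower window). Lrrtm4 was at 114, 194, 333 and 115 in wildtype and 465, 165, 183 and 389 in knockout (0.74 ± 0.17, adjusted p = 0.0417; 0.0832 to 0.576 without wildtype replicate 1 or 4 or without knockout replicate 1, 2 or 3, 1 with DESeq2 and 0.0931 in the narrower window). Hs3st4 was at 84.8, 83.0, 165 and 43.9 in wildtype and 274, 70.1, 66.8 and 251 in knockout (1.01 ± 0.24, adjusted p = 0.0455; 0.0665 to 0.492 without wildtype replicate 2 or 4 or without knockout replicate 1, 3 or 4, 1 with DESeq2 and 0.632 in the narrower window). All 3 were highest in knockout replicates 1 and 4. Those replicates also had the highest excitatory neuron sums, 7405 and 6593 against 4104 and 4267, and the part of these transcripts in the calls was not tested.

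**Figure D5:**
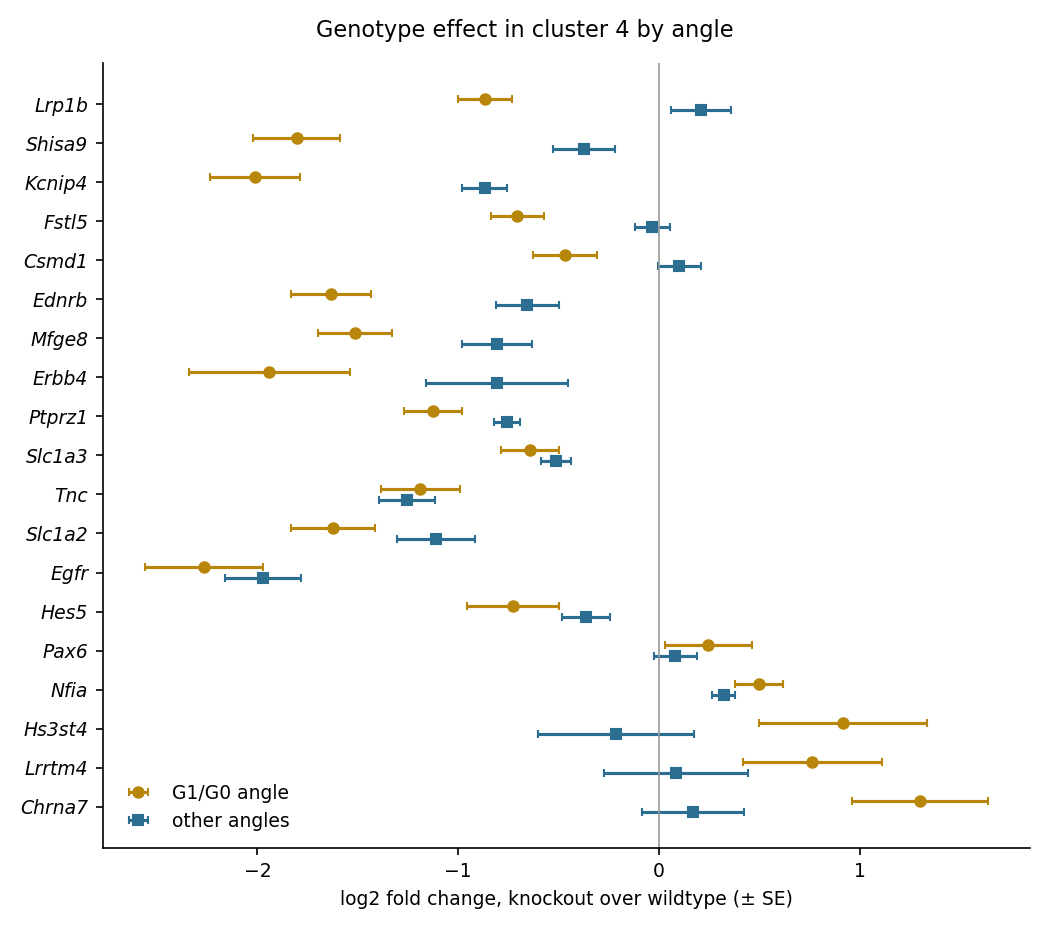
Log2 fold change of knockout over wildtype (± SE) for 19 genes in cluster 4 nuclei at the G1/G0 angle (circles) and at other angles (squares), from separate fits of the same 8 samples. Lrp1b, Shisa9 and Kcnip4 are lower at the G1/G0 angle than at other angles, whereas Tnc has nearly the same value at both (-1.19 and -1.25).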

How the data were processed

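Single-nucleus counts of 8 samples were used, 4 wildtype and 4 knockout. The authors deposited UMI counts per gene and nucleus, made with kallisto and bustools on genome build mm10, per the submitters' processing notes. Per the file headers, the deposited tables also hold each nucleus's cluster number, cell cycle angle and a doublet score (hybrid score), which was at most 0.5 in every nucleus, and all nuclei were kept. The cluster, angle and genes were set by the authors, and how nuclei were filtered is not given in the sources used here. The deposited count per nucleus was taken before the authors removed some genes. The members and gene lists were chosen with earlier results of these data known.

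UMIs were summed per gene and sample, over 14166 genes, and tested with edgeR 4.0.16 in R 4.3.3 (filterByExpr, TMM, quasi-likelihood test, Benjamini-Hochberg over all genes tested, threshold 0.05). Genotypes were compared without a block, and angles with the sample as a block. The sums at the G1/G0 angle were smaller (303342 to 813950 UMIs), so genes with few UMIs were not tested. Alternatives were DESeq2 1.42.0, RLE size factors, no filter on low counts, a narrower window, leaving out each sample, the replicate number as a block, Xist as a covariate for the sex makeup of the samples, nuclei without UMIs of Eomes, Neurod1, Neurod2 or Neurod6, and nuclei without UMIs of hem markers, which was chosen after seeing the data. Phases were scored with scanpy 1.11.5 from 41 S and 54 G2/M genes after thinning each nucleus to 1400 UMIs. Near-identical copies were sought with blastn 2.17.0 among GENCODE M21 transcripts, at 95% identity or more over at least 100 bases. The scripts were tested on simulated counts in which the mean of some genes was doubled or halved. The genotype comparison recovered 83% of these genes with 22 false calls among 6860 genes. These false calls were a larger share of its calls than the threshold of 0.05 allows. Adjusted p-values of the genotype comparison may therefore be too small. The angle comparison recovered 75.5% with 3 false calls, and the interaction 47% with 4.

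The text names the 4 markers, the 8 largest rises and 8 largest falls between genotypes (called, no overlap, mean of at least 10 UMIs per sample), up to 3 called members per list and direction, Pantr1, Nfix and Rgs6. For the angle it names the 10 largest rises and 5 largest falls outside the cell cycle (at least 20 UMIs, same direction in 4 samples) and 7 cell cycle genes, and for the interaction up to 5 genes per direction. Some genes that this rule names are not reported here.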

Additional observations from a re-analysis of the deposited data

Results flagged for a closer look

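In 3 of 80 groups of 4 samples, 1 sample stood apart from the others by nearly the whole range of the group, a gap of a size that chance gives in about 1 in 20 groups. Otx2os1 was at 121 CPM in wildtype replicate 1, and the nearest wildtype sample was at 43.9. Dnajc22 was at 1.30 CPM in wildtype replicate 1 and at 0 in the others, which is a single UMI. Tpm3-rs7 was at 2.44 CPM in wildtype replicate 4 and at 0 in the others, also a single UMI.

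The knockout effect differed between the G1/G0 angle and the other angles for 11 named genes, by the interaction in the edgeR fit of all samples. The difference (log2, SE) was -1.06 ± 0.15 for Lrp1b, -1.38 ± 0.21 for Shisa9, -1.12 ± 0.18 for Kcnip4, -0.64 ± 0.12 for Fstl5 and -0.51 ± 0.10 for Csmd1. It was -0.91 ± 0.20 for Ednrb, -0.67 ± 0.15 for Mfge8 and -1.16 ± 0.27 for Erbb4. It was positive for Chrna7 (1.05 ± 0.24), Lrrtm4 (0.74 ± 0.17) and Hs3st4 (1.01 ± 0.24). Lrp1b and Shisa9 were called under each alternative run for the interaction, and the other 9 were not.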

How the results depend on the processing

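Of 40 genes followed in the genotype comparison, 35 were called, and 22 of these were called in each alternative that tested them; 9 of the 22 were tested in all alternatives and 13 had too few UMIs in the smaller sets of nuclei. Of 69 genes in the angle comparison, 65 were called, and 33 of these were called in all alternatives. None of the called values changed sign. Leaving out 1 sample gave 103 to 237 called genes between the genotypes (main value 208, and 103 without wildtype replicate 1), 872 to 1245 between the angles (1380, and 872 without wildtype replicate 1) and 3 to 29 for the interaction (27; lowest without wildtype replicate 4). In nuclei without neuronal UMIs 54 genes were called between the genotypes, of 3451 tested instead of 6860. DESeq2 called 519 genes between the angles and 2 for the interaction, and the cause was not tested. No filter on low counts gave 56 for the interaction. The share of nuclei at the G1/G0 angle differed by -3.41 to -0.333 percentage points when 1 sample was left out, with no p under 0.05.

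By expression, replicate numbers did not pair the samples of the genotypes. Same-numbered wildtype and knockout samples had correlations of their deviations of -0.0983 to -0.00234 over 5007 genes. The median doublet score over all nuclei, however, was 0.0769 in wildtype replicate 1 and 0.0812 in knockout replicate 1. In the other samples it was 0.138 to 0.156. Whether same-numbered samples share a batch is not given in the sources used here. With the replicate block the genotype comparison called 190 genes, 157 of them among the 208. Slc1a3, Nfib, Elavl4 and Emx1 were not called with it. The share difference of -2.26 points had an exact sign-flip permutation p of 0.375. Angles were compared within samples, and with no replicate block 854 genes were called.

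Depth limits these results. The sums held 303342 to 813950 UMIs per sample, and low genes such as Hopx could not be tested between the genotypes. For the interaction, a gene not called is one without a difference detectable in these samples.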
